A study of Mus musculus with 4 samples.

Results

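The cathepsins and legumain, the lysosomal proteases that cut antigens and the invariant chain in dendritic cells (DC), are described here across the arrays of a study of TCDD, a dioxin that activates the aryl hydrocarbon receptor (AhR). The members are 10 genes chosen by name, out of 12393 genes that the array annotation gives a probe set of their own. All 10 were measured, by 16 probe sets in all: 4 for Ctsb, 3 for Ctsz, 2 for Ctse and 1 for each of the other 7 genes. No probe set that the annotation gives to several genes holds a member, so 16 is the full number. The TCDD group is female C57BL/6 mice aged 8 to 12 weeks that received 10 µg/kg TCDD in corn oil into the peritoneum 24 h before DC isolation. The DMSO group is the same strain, sex and age, given the solvent DMSO in corn oil at the same time. Per the labels a group was 3 mice and their spleens were pooled. DC of the spleen were concentrated by density centrifugation, then sorted magnetically to a stated purity above 90%, and their RNA was amplified. Each group has 2 arrays that the labels number as biological replicates. The sources used here do not give whether both arrays of a group drew on the same pooled mice, so p-values measure only the spread between these arrays.

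Cathepsins are made as inactive precursors, carried to endosomes and lysosomes largely by mannose 6-phosphate receptors, and activated there at low pH. They fall into cysteine, aspartic and serine proteases, while legumain is a cysteine protease of another family that cuts after asparagine. In DC they degrade the invariant chain in steps, which frees the class II peptide groove, and they produce the peptides that fill it. Cystatins hold back the cysteine cathepsins.

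All values are in RMA units on a log2 scale, so a difference of 1 is a factor of 2. They are stored to 1 decimal. Gene positions are those of RefSeq on the mouse assembly GRCm38.p6. A probe set is a group of array probes for 1 transcript, and levels of different probe sets are not compared with each other. Standard errors (SE) and 95% intervals are limma's moderated ones, with n = 2 arrays per group, and adjusted p-values are by Benjamini-Hochberg over all 22626 probe sets that are not controls. Groups are said not to overlap where both TCDD values are above, or both are below, both DMSO values. A probe set is called dim where its mean value is under 5.525, the 40th percentile of all probe sets. Of the member probe sets 15 of 16 were at or above it, and the exception was 1427797_s_at of Ctse.

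Most cathepsin probe sets and legumain lay lower in DC of TCDD-treated mice. The difference was below 0 in 14 of 16 probe sets, against 48.7% of all probe sets, and above 0 only in the 2 probe sets of Ctse. Under quantile normalization and under cyclic loess 13 of 16 were below 0, because 1417869_s_at of Ctsz turned to 0.09 and 0.06. In 10 probe sets of 8 genes both TCDD arrays lay below both DMSO arrays, against 18.4% of all probe sets, and in 1 probe set, of Ctse, both lay above, against 19% of all. The split of 10 lower and 1 higher became 4 and 1 under quantile normalization, where 16.5% of all probe sets were lower and 21.1% higher, and 5 and 1 under cyclic loess, where 22.6% were lower and 22.4% higher. The median difference of the 16 probe sets was -0.83, where the median of all probe sets was 0.00. None passed the test. Limma called 0 of 16 member probe sets and 0% of all probe sets at an adjusted p under 0.05. The smallest adjusted p among the members was 0.349, which was also the smallest of all probe sets. Other probe sets shared this value, among them those of Lamp1, Ctsf and Ctla2b, so it marks no top rank. At an unadjusted p under 0.05 there were 3 member probe sets, against 13.1% of all. These were Ctsc and Ctss on the lower side, where 6.7% of all stood, and 1418989_at of Ctse on the higher side, where 6.37% stood. Lower by at least 1 on the log2 scale without overlap were 5 of the 16, against 2.35% of all.

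**Figure D1:**
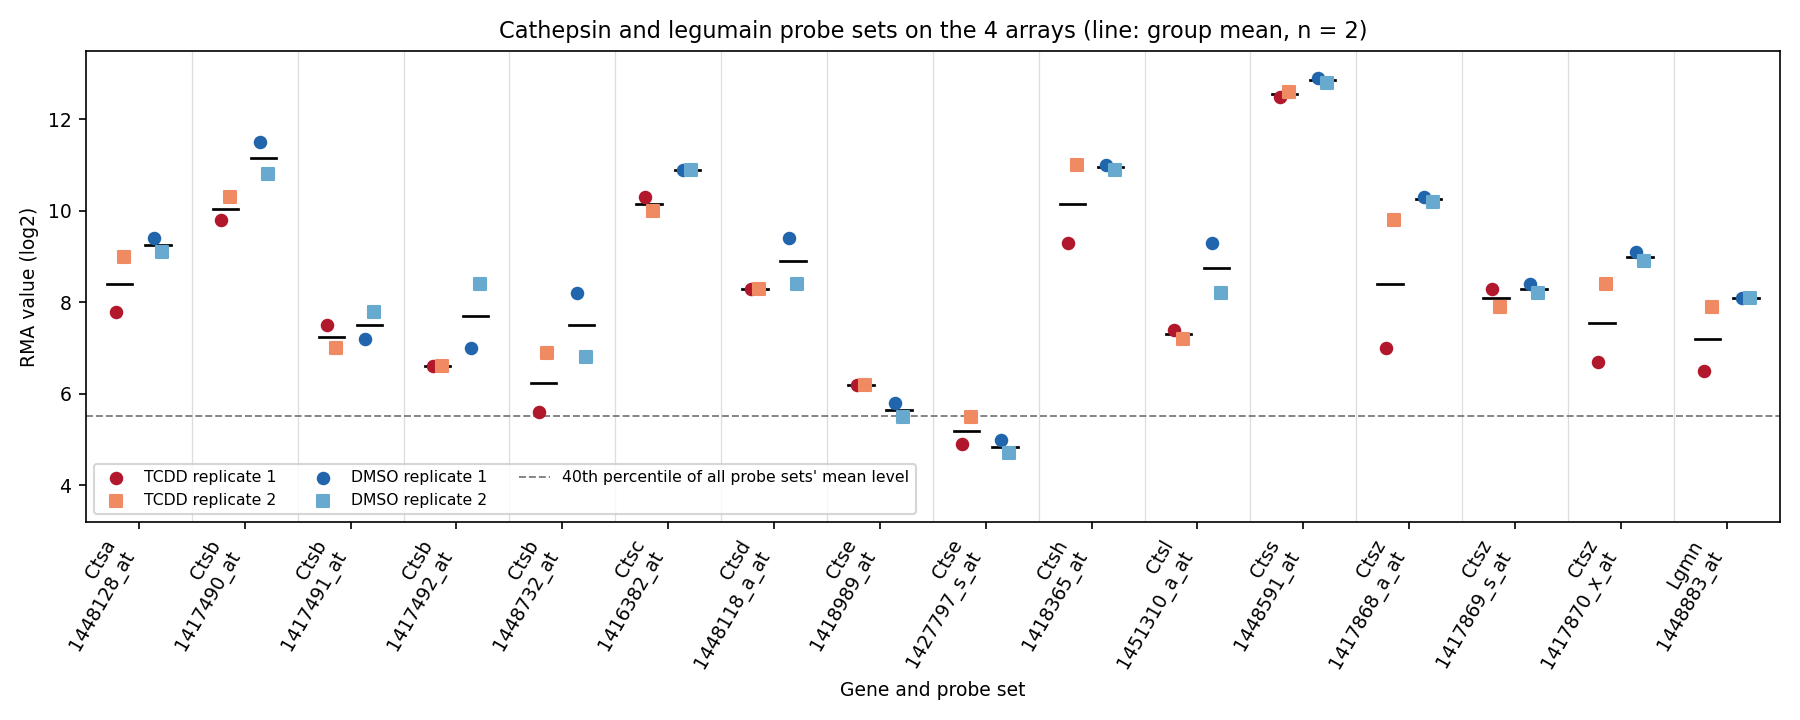
RMA values (log2, vertical axis) of the 16 probe sets of cathepsins and legumain on the TCDD and DMSO arrays, 1 point per array with a line at each group's mean; the dashed line is the 40th percentile of the mean level of all probe sets. TCDD replicate 1 lies far below the other arrays in Ctsh, Lgmn and 2 probe sets of Ctsz, and Ctse is the gene with higher TCDD means.

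The members are bright on this array, and bright probe sets as a class lay lower in TCDD. Of the 16 member probe sets 10 had a mean value of at least 8, a level that 3124 probe sets reach. All 10 had differences below 0, as did 79.7% of probe sets at that level. Their median difference was -0.83, against -0.35 for all at that level. Without overlap 8 of the 10 were lower, against 37.5% of all at that level, and 0 were higher, against 3.3%. Further, 4 of the 10 were lower by at least 1 on the log2 scale, against 7.07%. When each member probe set was set beside all probe sets in its own range of levels, most of these ranges 1 unit wide, 13 of 16 lay below the median of their range, as 46.8% of all probe sets did. Below the 10th percentile of their range were 7, where 8.7% of all probe sets were: 3 of Ctsb, 2 of Ctsz, Ctsl and Lgmn. Above the 90th percentile was 1, 1418989_at of Ctse, as were 8.53% of all.

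**Figure D2:**
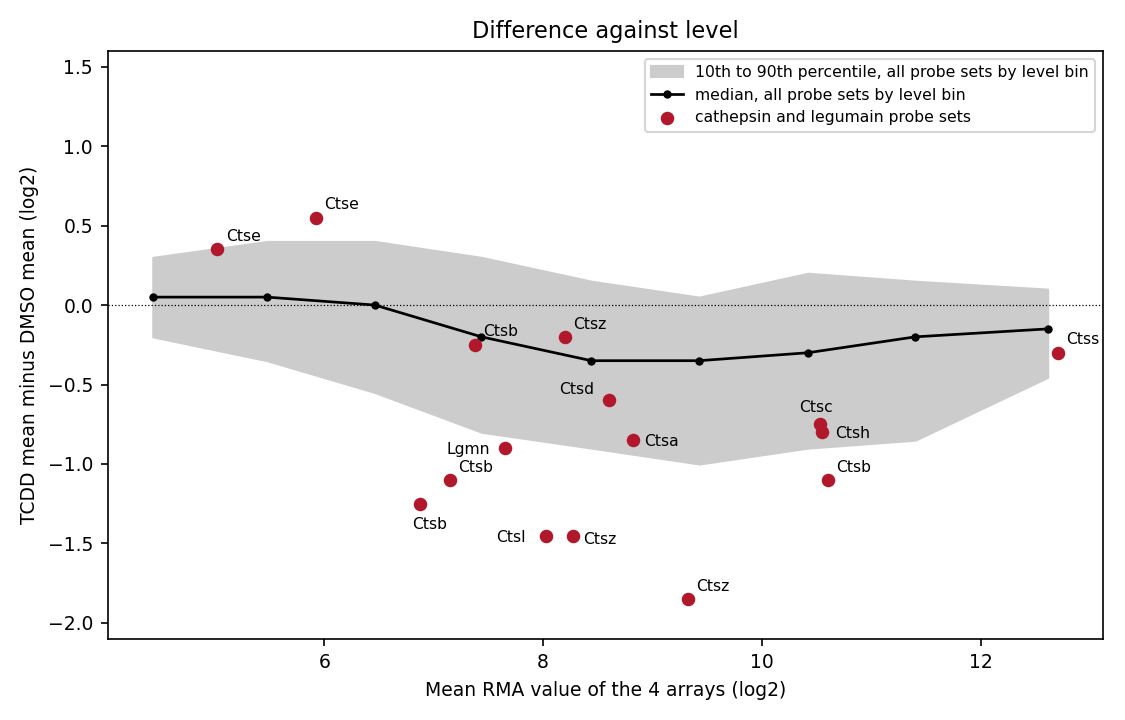
TCDD mean minus DMSO mean (log2, vertical axis) of each cathepsin and legumain probe set against its mean RMA value (log2, horizontal axis), over the median and the range from the 10th to the 90th percentile of all probe sets in each range of levels. The median of all probe sets is -0.35 for levels from 8 to 9, and Ctsl, Lgmn, 2 points of Ctsz and 3 of Ctsb lie under the shaded range.

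Both TCDD arrays had lower members, to a different extent. Against the DMSO mean, TCDD replicate 1 had a members' median of -1.23, and TCDD replicate 2 one of -0.48. Over the 10 bright members it was -1.35 and -0.53. All probe sets with a mean value of at least 8 had medians of -0.15 and -0.45 in the same arrays, so the bright members of TCDD replicate 2 stood near other bright probe sets. TCDD replicate 1 lay below both DMSO arrays in 12 of 16 member probe sets, where 23.7% of all probe sets did. TCDD replicate 2 did so likewise in 12 of 16, where 45.3% of all did. Among the 10 bright members the count was 9 in each TCDD array, against 46.9% of bright probe sets in TCDD replicate 1 and 75.6% in TCDD replicate 2.

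**Figure D3:**
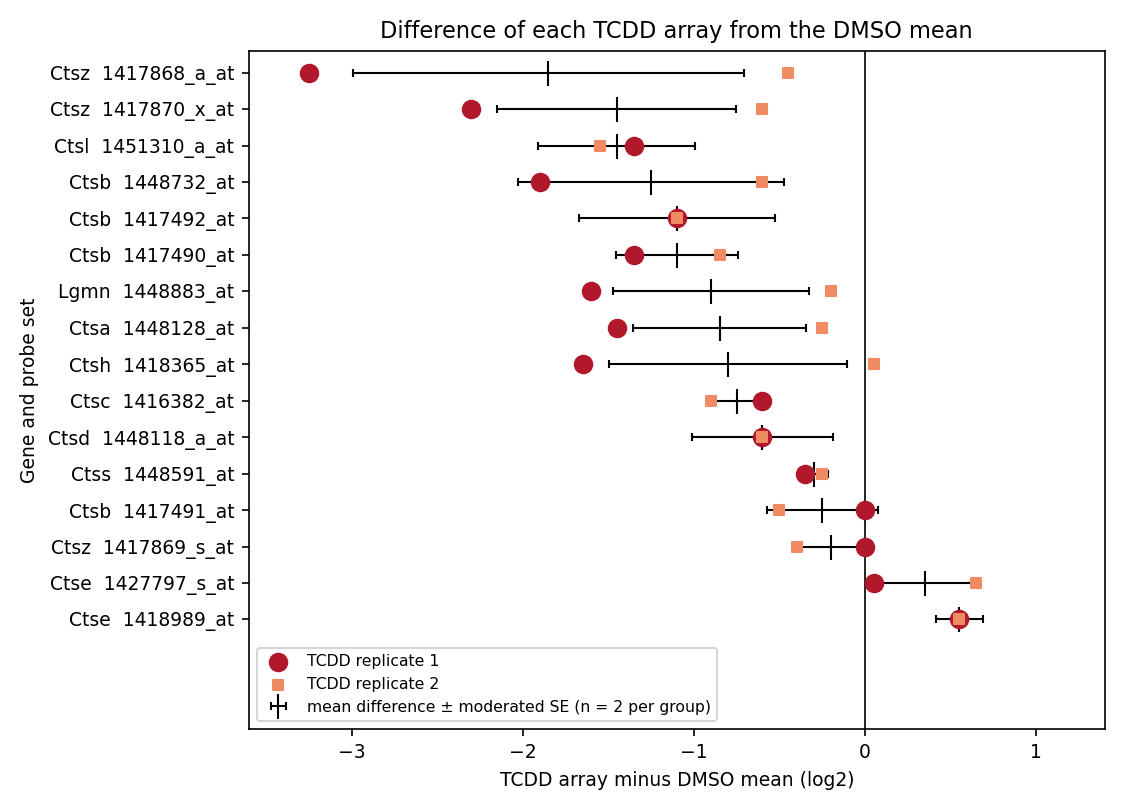
Each TCDD array minus the DMSO mean (log2, horizontal axis) for each probe set, with the mean of both and its moderated SE (n = 2 per group). In Ctsl, Ctsc, Ctsd, Ctss and 1417492_at of Ctsb the TCDD arrays lie within 0.3 of each other, while in 1417868_a_at of Ctsz they stand at -3.25 and -0.45.

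Among the endopeptidases Ctsl stood lowest with both TCDD arrays in accord. Cathepsin L, encoded on chromosome 13 (64361890 to 64370772), completes invariant chain breakdown in thymic epithelium. Its probe set 1451310_a_at lay at 7.4 and 7.2 in TCDD, against 9.3 and 8.2 in DMSO. The TCDD arrays were 0.2 apart and both lay under the lower DMSO array, while the DMSO arrays were 1.1 apart. The difference was -1.45 (SE 0.46, 95% interval -2.90 to 0.000803), or 2.73-fold lower, with an adjusted p of 0.382. Without DMSO replicate 1 it was -0.90. It kept its direction and its lack of overlap under quantile normalization, at -1.18, and cyclic loess, at -1.21.

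Cathepsin S (Ctss, chromosome 3, 95526786 to 95556405), the cysteine protease that removes the last piece of the invariant chain in DC and B cells, differed little. Its probe set 1448591_at lay at 12.5 and 12.6 in TCDD, against 12.9 and 12.8 in DMSO. The groups did not overlap, but the gap between them was 0.2. The difference was -0.30 (SE 0.08, 95% interval -0.57 to -0.03), or 1.23-fold lower, with an adjusted p of 0.379. It was -0.16 under quantile normalization and -0.05 under cyclic loess, and the groups overlapped under both.

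Cathepsin B (Ctsb, chromosome 14, 63122462 to 63145923), an endopeptidase that also removes dipeptides from the carboxy end, had 4 probe sets, all designed from 1 sequence record per the annotation. The brightest, 1417490_at, lay at 9.8 and 10.3 in TCDD, against 11.5 and 10.8 in DMSO. The groups did not overlap, and the difference was -1.10 (SE 0.35, 95% interval -2.22 to 0.02, adjusted p = 0.386). In 1417492_at both TCDD arrays were at 6.6, against 7.0 and 8.4 in DMSO, a difference of -1.10 (SE 0.57) without overlap. It was -0.40 without DMSO replicate 2 and -1.80 without DMSO replicate 1. In 1448732_at the values were 5.6 and 6.9 in TCDD, against 8.2 and 6.8 in DMSO, so the groups overlapped at a difference of -1.25 (SE 0.78). It was -0.55 without DMSO replicate 1, -0.60 without TCDD replicate 1, -1.95 without DMSO replicate 2 and -1.90 without TCDD replicate 2. The DMSO arrays disagreed by 1.4 in both of these, in opposite directions. The last, 1417491_at, lay at 7.5 and 7.0 in TCDD, against 7.2 and 7.8 in DMSO, and at a difference of -0.25 (SE 0.32) the groups overlapped. With all arrays the 4 differences were below 0. The last was 0.05 without DMSO replicate 2 and 0.00 without TCDD replicate 2.

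Legumain (Lgmn, chromosome 12, 102394082 to 102439728), which makes early cuts in antigens and the invariant chain and trims cathepsins, was low in 1 array. Its probe set 1448883_at lay at 6.5 and 7.9 in TCDD, against 8.1 in both DMSO arrays. The groups did not overlap, but TCDD replicate 2 was only 0.2 under DMSO. The difference was -0.90 (SE 0.57, 95% interval -2.71 to 0.91, adjusted p = 0.536). Without TCDD replicate 1 it was -0.20.

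The exopeptidases differed in how far their TCDD arrays agreed. Cathepsin C (Ctsc, chromosome 7, 88278024 to 88315861) takes dipeptides from the amino end and activates serine proteases of granules. Its probe set 1416382_at lay at 10.3 and 10.0 in TCDD, against 10.9 in both DMSO arrays. Both TCDD arrays were clearly under DMSO and 0.3 from each other. The difference was -0.75 (SE 0.14, 95% interval -1.18 to -0.32), or 1.68-fold lower. Its adjusted p of 0.349 was the smallest of the members and equal to the smallest of all probe sets. That value is a tie with other probe sets, such as those of Lamp1 and Ctsf, and not a top rank. Under quantile normalization it was -0.48 and under cyclic loess -0.45, without overlap in both.

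Cathepsin H (Ctsh, chromosome 9, 90054267 to 90076095) is mainly an aminopeptidase. Its probe set 1418365_at lay at 9.3 and 11.0 in TCDD, against 11.0 and 10.9 in DMSO. Only TCDD replicate 1 was low, and TCDD replicate 2 was level with DMSO. The difference of -0.80 (SE 0.69, adjusted p = 0.619) became 0.05 without TCDD replicate 1.

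Cathepsin Z (Ctsz, also called cathepsin X, chromosome 2, 174427494 to 174439039) is a carboxypeptidase, and its 3 probe sets share 1 sequence record. The probe set 1417868_a_at lay at 7.0 and 9.8 in TCDD, against 10.3 and 10.2 in DMSO. The difference of -1.85 (SE 1.14, 95% interval -5.46 to 1.76, adjusted p = 0.534) was the lowest of all members and came mostly from TCDD replicate 1, without which it was -0.45. The probe set 1417870_x_at lay at 6.7 and 8.4 in TCDD, against 9.1 and 8.9 in DMSO, a difference of -1.45 (SE 0.70), or -0.60 without TCDD replicate 1. The probe set 1417869_s_at lay at 8.3 and 7.9 in TCDD, against 8.4 and 8.2 in DMSO. Here TCDD replicate 1 was level with DMSO, and the difference of -0.20 (SE 0.19) went with overlapping groups. In Affymetrix naming the x and s endings mark probe sets that can also match related transcripts, so either may carry signal of another gene.

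Of the aspartic proteases, 1 was lower and the other higher. Cathepsin D (Ctsd, chromosome 7, 142375910 to 142387827), the main aspartic protease of lysosomes, lay at 8.3 in both TCDD arrays on 1448118_a_at, against 9.4 and 8.4 in DMSO. The TCDD arrays were level with each other and 0.1 under the lower DMSO array. The difference of -0.60 (SE 0.41, adjusted p = 0.556) rested on DMSO replicate 1, and was -0.10 without it. Under quantile normalization it was -0.26 and under cyclic loess -0.31, with overlap in both.

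Cathepsin E (Ctse, chromosome 1, 131638314 to 131675507), an aspartic protease found in endosomes rather than lysosomes, was the only member with higher values in TCDD. Its probe set 1418989_at lay at 6.2 in both TCDD arrays, against 5.8 and 5.5 in DMSO. Both TCDD arrays were above both DMSO arrays, close above the dim threshold. The difference was 0.55 (SE 0.14, 95% interval 0.12 to 0.98), or 1.46-fold higher, with an adjusted p of 0.379. The dim probe set 1427797_s_at lay at 4.9 and 5.5 in TCDD, against 5.0 and 4.7 in DMSO, and the groups overlapped at a difference of 0.35 (SE 0.28).

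Cathepsin A (Ctsa, chromosome 2, 164832872 to 164841032), the serine carboxypeptidase that also protects lysosomal beta-galactosidase and Neu1, lay at 7.8 and 9.0 in TCDD on 1448128_at, against 9.4 and 9.1 in DMSO. The groups were 0.1 apart, and TCDD replicate 1 alone was far below. The difference was -0.85 (SE 0.51, adjusted p = 0.533), and -0.25 without TCDD replicate 1.

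In several members TCDD replicate 1 alone was low. In 6 of 16 probe sets (2 of Ctsz, 1 each of Ctsa, Ctsb, Ctsh and Lgmn) that array lay at least 1 under each of the other 3 arrays, against 1.27% of all probe sets and 5.83% of those with a mean value of at least 8. No member probe set met the same condition in TCDD replicate 2 or in either DMSO array, where 1.07%, 0.00884% and 0.00884% of all probe sets did. The condition was chosen after the values were seen. Probe sets of 1 gene also parted in that array. The Ctsz probe sets spanned 3.25 in TCDD replicate 1, as differences from the DMSO mean, but 0.20 in TCDD replicate 2, and the Ctsb probe sets spanned 1.90 and 0.60. The Ctsb probe sets also parted between the DMSO arrays, with replicate 1 minus 2 at 0.7, -0.6, -1.4 and 1.4. For Ctsz these were 0.1, 0.2 and 0.2. The gap between the middle and the 3′ end of control transcripts was largest in TCDD replicate 1. For Gapdh the 3′ probe set was above the middle one by 3.6 and 2.0 in TCDD (replicates 1 and 2), against 1.5 and 2.1 in DMSO. For beta-actin the gap was 4.0 and 2.0 in TCDD, against 1.9 and 2.1 in DMSO. Probe positions along the cathepsin transcripts were not used here, and the part of this gap in the members' values was not tested.

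**Figure D4:**
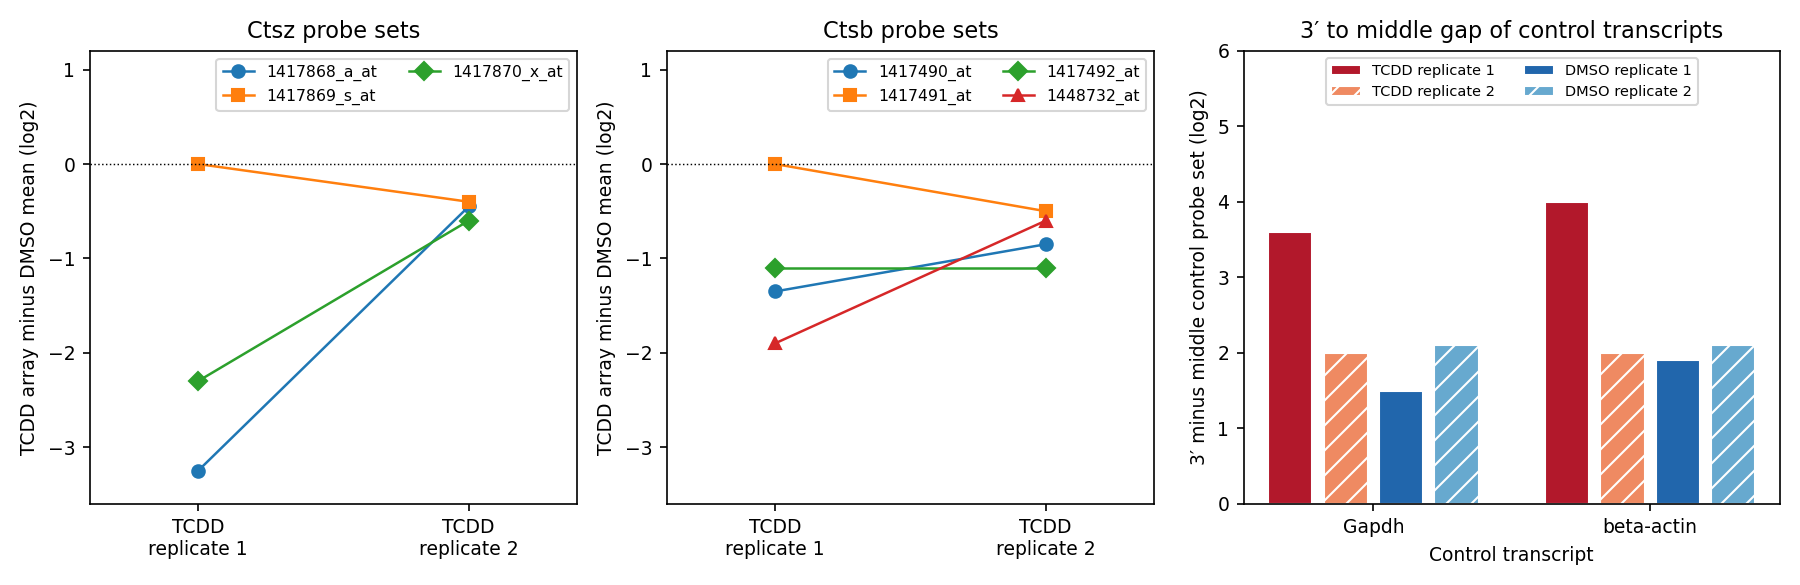
Left and middle, each TCDD array minus the DMSO mean (log2) for the probe sets of Ctsz and Ctsb, joined by probe set; right, the 3′ minus middle control probe set (log2) of Gapdh and beta-actin on each array. The Ctsz probe sets lie between -3.25 and 0.00 in TCDD replicate 1 and between -0.60 and -0.40 in TCDD replicate 2, and TCDD replicate 1 has the tallest control bars.

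In Ctsl, Ctsc, Ctsd, Ctss and 1417492_at of Ctsb both TCDD arrays lay within 0.3 of each other and under both DMSO arrays. Promoter sequences of 4 of these 5 genes are shown because their lower values were shared by both TCDD arrays. Ctsb is the gene not shown. Under quantile normalization and cyclic loess the groups overlapped in Ctsd and Ctss. Each sequence is 250 bases before to 50 after a transcript start, from RefSeq on GRCm38.p6, written 5′ to 3′ along the gene. The Ctsl window, up to 64370770, lies wholly within the gene (64361890 to 64370772). Its start is thus inside the gene, not at the gene's outer 5′ end. Capitals mark GCGTG, the core of the AhR binding site, and CACGTG, the core bound by Tfeb and related lysosomal regulators, on either strand. In the Ctsl sequence the last capital run also holds TNGCGTG, a longer form of the AhR site that contains the core.
Ctsl promoter, chr13:64370471-64370770, minus strand: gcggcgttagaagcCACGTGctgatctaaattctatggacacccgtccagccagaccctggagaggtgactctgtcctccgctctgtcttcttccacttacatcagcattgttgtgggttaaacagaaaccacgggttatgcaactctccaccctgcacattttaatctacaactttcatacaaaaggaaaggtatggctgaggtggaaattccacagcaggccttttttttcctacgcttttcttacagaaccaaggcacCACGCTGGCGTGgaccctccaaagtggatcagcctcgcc
Ctsc promoter, chr7:88277835-88278134, plus strand: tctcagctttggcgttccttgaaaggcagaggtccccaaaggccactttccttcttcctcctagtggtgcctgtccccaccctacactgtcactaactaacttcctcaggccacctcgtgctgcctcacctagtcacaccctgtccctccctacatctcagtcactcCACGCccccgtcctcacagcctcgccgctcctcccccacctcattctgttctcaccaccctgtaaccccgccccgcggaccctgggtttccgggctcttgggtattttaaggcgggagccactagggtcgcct
Ctsd promoter, chr7:142387778-142388077, minus strand: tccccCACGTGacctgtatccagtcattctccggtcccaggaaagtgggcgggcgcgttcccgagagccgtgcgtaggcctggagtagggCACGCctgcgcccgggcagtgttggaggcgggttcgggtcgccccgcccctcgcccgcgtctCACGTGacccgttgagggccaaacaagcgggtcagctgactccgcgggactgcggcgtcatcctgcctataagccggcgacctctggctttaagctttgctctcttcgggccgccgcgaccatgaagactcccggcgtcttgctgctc
Ctss promoter, chr3:95526536-95526835, plus strand: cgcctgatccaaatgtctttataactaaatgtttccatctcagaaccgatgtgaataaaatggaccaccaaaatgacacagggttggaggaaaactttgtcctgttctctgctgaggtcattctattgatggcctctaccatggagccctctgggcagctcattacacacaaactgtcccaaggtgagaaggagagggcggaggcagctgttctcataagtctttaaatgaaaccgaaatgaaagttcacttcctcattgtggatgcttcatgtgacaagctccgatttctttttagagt

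Of the 10 members 7 had a promoter entry, with 9 starts in all, and Ctsb, Ctse and Ctsh had none. GCGTG stood in 6 of the 9, against 32.4% of 32851 promoters of that length, and TNGCGTG in 1, that of Ctsl, against 5.07%. CACGTG stood in 4 of the 9, of Ctsa, Ctsd, Ctsl and Lgmn, against 7.15%. In Ctsl the AhR cores lie 12 and 19 bases past the start used, which is inside the gene. In Ctsd CACGTG starts 245 and 98 bases before the start, and the Ctss sequence holds none of these motifs. A match is a run of letters in this window, not a measured binding site.

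The rest of the lysosomal and class II route was described by 8 lists of genes, with 83 genes measured by 137 probe sets. Without overlap 50 of the 137 were lower in TCDD, which is 36.5%, and 9 were higher, with a median difference of -0.25. Of all probe sets 18.4% were lower and 19% higher, and of those with a mean value of at least 8 it was 37.5% lower. The 50 became 32 under quantile normalization, where 16.5% of all probe sets and 14.4% of those at that level were lower. Without DMSO replicate 2 they became 83, against 28.4% and 50.1%. Without TCDD replicate 1 they became 82, against 45.3% and 75.6%. Limma called 0. The counts of lower probe sets were 15 of 40 for other lysosomal hydrolases, 10 of 14 for lysosomal membrane and transport proteins, 12 of 33 for the vacuolar proton pump, 8 of 14 for sorting to lysosomes, 2 of 10 for class II chains and their helpers, 2 of 6 for regulators, 1 of 8 for cysteine protease inhibitors and 0 of 12 for other cathepsins. Higher were 2 hydrolase, 2 proton pump, 1 regulator, 1 inhibitor and 3 other cathepsin probe sets, and 0 in the membrane, sorting and class II lists. The highest share of lower probe sets was that of the membrane proteins, with a median of -0.45 in TCDD replicate 1 and -0.60 in TCDD replicate 2. In that list Lamp1, the major lysosomal membrane glycoprotein, lay at 9.9 and 10.1 in TCDD, against 10.9 and 10.7 in DMSO, a difference of -0.80 (SE 0.13). Among the sorting genes M6pr, a mannose 6-phosphate receptor, lay at 9.6 and 9.8 in TCDD, against 10.2 and 10.5 in DMSO, at -0.65 (SE 0.16). The class II list had the lowest median, -0.95, mostly from TCDD replicate 1, with -1.48 there and -0.25 in TCDD replicate 2. Probe sets of 1 gene parted in this list too. The brightest of H2-Ab1 differed by -0.45 and its others by -2.5 and -2.6. The brightest of H2-Aa differed by -0.15 and its other by -1.9. The class II median thus rests partly on probe sets that disagree within a gene. Of the regulators Ciita, which drives class II genes, differed by -0.55 (SE 0.23) on its brightest probe set. Its other probe set lay at 5.6 in both TCDD arrays, against 5.6 and 5.5 in DMSO. There the groups overlapped at a difference of 0.05. Tfeb, which drives lysosomal genes, differed by 0.25 (SE 0.11).

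The inhibitors parted. Cystatin C (Cst3), a secreted inhibitor of cysteine cathepsins, lay at 11.1 and 11.7 in TCDD, against 12.7 and 12.4 in DMSO, a difference of -1.15 (SE 0.28) without overlap. Ctla2b, similar to the propeptide of cathepsin L-like proteases, lay at 11.0 and 10.0 in TCDD, against 5.4 and 6.7 in DMSO, a difference of 4.45 (SE 0.67). Neither passed the test, with adjusted p-values of 0.379 and 0.349.

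The gene pattern most like the members' was sought over the 4 arrays, as the smallest Euclidean distance from a median profile over the 10 members, each value taken against its DMSO mean. For the profile each gene was represented by its brightest probe set, so it differs from the median over 16 probe sets. The profile was -1.35 and -0.35 in TCDD, against 0.10 and -0.10 in DMSO. Of 12436 probe sets Cox5a was closest at a distance of 0.0707, and 5 further genes (Clic1, Caprin1, Ppp6r3, Emg1 and Psmd8) were tied at 0.1225, with no order among them.

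The labelled cell type was checked by markers. All 10 DC markers were measured and above the dim threshold, with Itgax, the CD11c chain, at 9.1 and 9.4 in TCDD, against 9.6 and 10.1 in DMSO. Without overlap 5 of 16 DC marker probe sets were lower and 0 higher, against 18.4% and 19% of all probe sets. Most of them have a mean value of at least 8, and of all probe sets there 37.5% were lower and 3.3% higher. In a bulk sample fewer cells of a type and less RNA per cell cannot be told apart. Of the neutrophil markers 9 of 11 measured were above the threshold (Lcn2 and Ctsg were not), and their summed linear value was 3211 and 789 in TCDD, against 903 and 769 in DMSO. TCDD replicate 1, the array with the low Ctsh, Ctsz and Lgmn values, also held the high neutrophil sum, which S100a8 and S100a9, subunits of calprotectin, led. S100a8 lay at 10.3 and 5.6 in TCDD, against 6.4 and 5.9 in DMSO. S100a9 lay at 9.6 and 5.3 in TCDD, against 6.4 and 5.6 in DMSO. Without overlap 4 of 12 neutrophil probe sets were higher (Camp, Lcn2, Mpo and Ctsg) and 1, of Mmp9, was lower, while Elane, the neutrophil elastase, differed by -0.05. Of the macrophage and monocyte markers all 15 measured were above the threshold, 8 of 25 probe sets were lower and 0 higher, and the sum was 10870 and 7334 in TCDD, against 12040 and 13170 in DMSO. Among the other markers 10 of 18 probe sets of type 1 conventional DC were lower and 0 higher. For type 2 conventional DC 4 of 15 were lower and 2 higher, and for plasmacytoid DC 1 of 13 was lower and 0 higher. For B cells 2 of 9 were lower and 3 higher, and for plasma cells 3 of 12 were lower and 1 higher. For T and NK cells 0 of 9 were lower and 1 higher, and for erythroid cells 0 of 8 were lower and 4 higher. The part of cell makeup in the members' differences was not tested.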

How the data were processed

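The deposited values are log2 RMA values, per the submitters' processing notes, which correct background, quantile-normalize and summarize probes; the sources used here give no software or version. Values are on steps of 0.1 throughout. The deposited columns still differ in distribution. Quantile normalization of them moved the median difference of probe sets with a mean value of at least 8 from -0.35 to 0.00. Of 22690 probe sets 64 controls were left out of the tests. By the platform annotation 20380 of the other 22626 have 1 symbol, 691 several and 1555 none. Arrays give no counts, so their number limits the precision.

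Differences between TCDD and DMSO were fitted by lmFit and eBayes of limma 3.58.1 (R 4.3.3; prior of 1.03 degrees of freedom), tested on simulated data. For single probe sets an exact permutation test was not run, since the smallest p it allows here is 0.333. Members and lists were chosen with earlier results of these data known. Every member probe set is named, and of each list up to 4 genes of largest difference at or above the 40th percentile of level, on the brightest probe set. Features singled out beyond these were chosen after their values were seen. Alternatives were other normalizations, a dim filter, a replicate block, another prior, 1 probe set per gene, a looser threshold and each array left out; cyclic loess was chosen after seeing the data. The replicate numbers are not known to pair the arrays.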

Additional observations from a re-analysis of the deposited data

Results flagged for a closer look

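Control probe sets, which the comparison does not use, showed larger gaps along the transcript in TCDD replicate 1 than in either DMSO array. From the 3′ end to the middle the gap was 3.6 for Gapdh, with 2.1 as the highest DMSO value, and 4.0 for beta-actin, with 2.1 as the highest DMSO value. From the 3′ to the 5′ end it was 5.4 for Gapdh, with 4.9 as the highest DMSO value, and 4.4 for beta-actin, with 4.0 as the highest DMSO value. In TCDD replicate 2 these gaps were 2.0, 2.0, 4.7 and 3.3. What these gaps contribute to the cathepsin values was not tested.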

How the results depend on the processing

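Limma called 0 probe sets under all 11 alternatives in which it was run, and no member passed under any, with adjusted p-values from 0.114 to 1. Of 159 recomputed member differences 155 kept their direction or reached 0. The replicate block, the other prior and the dim filter cannot change a difference, so their part of this count was fixed beforehand. Median centring moved every difference by the same -0.05, too little to reverse any member. Leaving out an array cannot reverse a probe set whose groups do not overlap. Those parts of the count were thus fixed as well. The 4 that reversed were 1417869_s_at of Ctsz, at 0.0875 under quantile normalization and 0.0619 under cyclic loess, 1417491_at of Ctsb, at 0.05 without DMSO replicate 2 (lowest -0.55, without DMSO replicate 1), and Ctsh, at 0.05 without TCDD replicate 1 (lowest -1.65, without TCDD replicate 2). The 10 member probe sets lower without overlap became 4 under quantile normalization (Ctsc, Ctsl and 2 of Ctsb) and 5 under cyclic loess (these and 1417870_x_at of Ctsz). Leaving out an array makes non-overlap more likely by construction. The lower ones then numbered 11 to 12, where 23.7% to 45.3% of all probe sets were lower. Of probe sets with a mean value of at least 8 it was 46.93% to 75.61%. The higher ones numbered 1 to 2, where 24.83% to 40.85% of all were higher. Lower probe sets of the pathway lists became 32 under quantile normalization, against 50, where 16.5% of all probe sets were lower. They numbered 57 to 83 where an array was left out, beside the shares of lower probe sets just given. The members' median ranged from -1.23 (without TCDD replicate 2) to -0.48 (without TCDD replicate 1), and was -0.49 under quantile normalization and -0.53 under cyclic loess, where the median of all probe sets at a level of at least 8 became 0.00 and -0.04. The cause was not tested. The replicate block called 0 probe sets and no member, with a smallest member adjusted p of 0.421; replicate 1 minus 2 correlated at -0.189 between the groups over all probe sets.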

Other observations

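Cathepsins outside the family described were mostly dim. Of 12 measured, 10 had a mean value under the 40th percentile, among them Ctsk, the bone collagen protease, and Ctsj, Ctsm, Ctsq, Ctsr, Cts3, Cts6, Cts7 and Cts8, which in mice belong to the placental cathepsins. Ctsf, a lysosomal cysteine cathepsin of macrophages, lay at 6.0 and 6.1 in TCDD, against 5.5 and 5.3 in DMSO, a difference of 0.65 (SE 0.11, limma adjusted p = 0.349). Both TCDD arrays were above both DMSO arrays, as in 1418989_at of Ctse. The other higher ones without overlap were Ctsg, the neutrophil serine cathepsin, at 0.30 and Cts7 at 0.15, both dim. Ctsw, the cathepsin of cytotoxic lymphocytes, lay at 7.0 and 6.7 in TCDD, against 7.0 and 6.6 in DMSO.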
